A study of Mus musculus with 6 samples.

Results

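Neutrophils that carried RNA for the chemokines Ccl3 and Ccl4 and the cytokines Il23a and Tnf were examined in orthotopic pancreatic tumours of mice. They were taken from all 6 libraries by raw UMI counts (a UMI marks 1 captured RNA molecule). A barcode was gated as a neutrophil when S100a8, S100a9, Csf3r, Cxcr2, Il1r2 and G0s2 together made at least 1% of its UMIs. It could hold at most 3 UMIs of C1qa, C1qb and C1qc, at most 1 UMI of Cd3d, Cd3e, Cd3g and Trac, and less than 0.5% of Cd74, H2-Aa and H2-Ab1. A gated neutrophil was kept as a member when Ccl3, Ccl4, Il23a and Tnf summed to at least 4 UMIs, when Cxcr2 and Siglecf were at 0, and when Isg15, Ifit1, Ifit3 and Rsad2 summed to at most 3. This gave 1868 members of 13684 gated neutrophils and of 47794 barcodes. Members were thus chosen by measured UMI counts of the genes in the rule, and Gpr84 and Ccrl2 were proposed as markers with these data in view, so their values are descriptions and carry no test.

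KPC cells, a pancreatic cancer line of the mouse, had been inoculated into the pancreas of 6 C57BL/6J mice, and the labels give the genotype as wild-type. The mice were randomised to IgG (IgG 1, 2 and 3) or to the antibody #44-anti-mVSIG4, which is directed at VSIG4, a complement receptor of macrophages (anti-VSIG4 1, 2 and 3). Tumours were taken 11 days after inoculation, and each mouse gave 1 library, made with DNBelab C TaiM4 V3.0 chemistry and read on an MGI DNBSEQ-T7. Age, antibody dose and dosing days were not stated in the labels.

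Neutrophils are short-lived granulocytes that enter tissue through the chemokine receptor CXCR2 and lose their recruitment receptors as they age there. Ccl3 and Ccl4 encode chemokines that draw monocytes and T cells. Il23a encodes the p19 subunit of IL-23, which sustains IL-17-producing lymphocytes, and Tnf encodes tumour necrosis factor. All of these genes are induced through NF-kB, a transcription factor held in the cytoplasm by IkB proteins until a receptor signals. In low oxygen a different factor, HIF-1, turns on genes of glycolysis and of mitochondrial turnover, and its core DNA motif is ACGTG. Ccrl2 encodes a chemerin-binding receptor without signalling of its own, and Gpr84 a receptor for medium-chain fatty acids.

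Promoter sequence is shown for 4 genes picked because a window held a motif match: Ldha, Bnip3 and F10, which were higher in members than in each other set of gated neutrophils, and the marker gene Ccrl2. Each is the 250 bases before the start site, 5′ to 3′ on the gene's strand, from RefSeq (GRCm38.p6). In Ldha (the first of 2 listed start sites, chr7:46845554-46845803, plus strand), Bnip3 (chr7:138909507-138909756, minus strand) and F10 (chr8:13037058-13037307, plus strand), capitals mark ACGTG on either strand. In Ccrl2 (the first of 3 listed start sites, chr9:111057519-111057768, minus strand), capitals mark the match to the NF-kB consensus.
Ldha: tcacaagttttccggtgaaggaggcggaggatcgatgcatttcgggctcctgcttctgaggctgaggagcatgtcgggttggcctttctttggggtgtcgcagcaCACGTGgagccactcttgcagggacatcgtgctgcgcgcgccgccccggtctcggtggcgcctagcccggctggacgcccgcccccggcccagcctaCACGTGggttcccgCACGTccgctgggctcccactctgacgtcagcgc
Bnip3: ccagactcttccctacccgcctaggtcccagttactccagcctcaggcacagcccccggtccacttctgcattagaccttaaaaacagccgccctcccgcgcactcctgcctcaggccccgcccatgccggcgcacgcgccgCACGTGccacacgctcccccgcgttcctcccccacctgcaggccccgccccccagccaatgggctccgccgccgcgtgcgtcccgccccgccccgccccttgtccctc
F10: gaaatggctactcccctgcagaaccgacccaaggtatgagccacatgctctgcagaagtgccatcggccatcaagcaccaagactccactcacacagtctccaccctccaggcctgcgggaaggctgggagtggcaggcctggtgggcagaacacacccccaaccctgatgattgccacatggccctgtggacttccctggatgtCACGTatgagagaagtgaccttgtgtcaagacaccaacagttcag
Ccrl2: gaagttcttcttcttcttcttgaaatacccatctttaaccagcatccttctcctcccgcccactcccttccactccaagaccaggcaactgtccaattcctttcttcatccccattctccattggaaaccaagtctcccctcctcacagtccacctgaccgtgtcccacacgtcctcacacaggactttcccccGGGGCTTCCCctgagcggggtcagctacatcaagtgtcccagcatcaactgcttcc
The Ldha window held 5 matches counted on both strands, with overlapping matches within CACGTG counted on each, the Bnip3 window 2 and the F10 window 1. The Ccrl2 match began 56 bases before the start. No ACGTG lay in the windows of F7, Fnip2, Higd1a and Mif, in the second Ldha window or in the first of 2 Hilpda windows. No match to the NF-kB consensus lay in the other Ccrl2 windows or in the windows of Ccl3, Tnf and Gpr84, which says only that those letters are not there.

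S100a8, S100a9 and Csf3r are part of the neutrophil gate, so their levels describe the gate and do not check the label. S100a8 and S100a9, the calprotectin subunits of neutrophils, stood at 7597 ± 1458 and 13587 ± 1737 counts scaled to the same total in each library (CPM; mean ± SD of the 6 libraries) in members, against 448 and 775 CPM in barcodes outside the gate. Csf3r, the G-CSF receptor, stood at 640 ± 198 CPM against 73.4 outside the gate. Of markers outside the rule, Mmp9, a granule protease, stood at 1461 ± 442 CPM in members against 139 outside the gate. Ly6g, the surface marker used to sort mouse neutrophils, was near 0 in members (0 to 25.2 CPM by library) as it was in the other gated neutrophils (3.50 to 13.0 CPM). Members carried fewer UMIs per cell than other gated neutrophils in 6 of 6 libraries, with medians of 1291 to 1621 against 1357 to 1838 (exact sign-flip permutation p = 0.031, the smallest that 6 libraries allow). The rule caps Cxcr2, Siglecf and interferon UMIs in absolute counts, limits that deeper cells meet less easily. The order is thus partly set by the rule, and the p-value is no independent finding. Gated cells within the same limits but with a lower cytokine sum had lower medians than members in each library (1225 to 1521). Summed over cells, members held 239741 to 758448 UMIs per library.

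"Cytokine-making" did not set members apart from all other gated neutrophils. Of the 13684 gated cells, 7163 held at least 4 UMIs of the 4 cytokine genes, and 5295 of these were not members because Cxcr2, Siglecf or the interferon genes were above the limits. For description, the cells outside were placed in 4 sets. Those above the interferon limit made up 7700 cells (the interferon set), of which 46.7% reached 4 cytokine UMIs. The remaining cells with Siglecf, a marker of neutrophils adapted to tumours, made up 946 (65.6% reaching 4). The remaining cells with Cxcr2 made up 1901 (56.9%). The last 1269 differed from members by a lower cytokine sum alone and are called the low-cytokine set. Around the threshold, the 201 cells with a sum of 3 had 978 CPM of Ccl3 and the 152 members with a sum of 4 had 1331 CPM, an order that the sum itself fixes.

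Ccl3 led the mixture. The median member held 15 UMIs of the 4 genes (interquartile range 7 to 31, highest 419), of which Ccl3 supplied 52.5% of all such UMIs, Il23a 8.02% and Tnf 7.47%, with Ccl4 making up the rest. Ccl3 was found in 93.6% of members, Ccl4 in 70.3%, Tnf in 43.0% and Il23a in 37.5%. All 4 genes were found together in 12.6% of members, and Ccl3, Ccl4 or both with neither Il23a nor Tnf in 40.7%. Only 80 members (4.28%) held Il23a without Ccl3. A share of cells with a UMI depends on depth, and droplets also take up free RNA. After every cell was thinned to 1000 UMIs, Ccl3 was found in 82.7% to 93.6% of members by library against 8.50% to 25.9% of barcodes with T cell receptor transcripts, which served as the background. Whether the UMIs in those barcodes were free RNA or made by the cells themselves was not tested. The same thinned shares for Il23a were 25.1% to 51.3% against 0.926% to 5.58%, and for Tnf 29.0% to 41.4% against 2.30% to 6.80%. Members were chosen by these genes, so their shares are descriptions and the distance from the background is no finding. Unthinned, T cell receptor barcodes had median depths of 2681 to 4252.5 UMIs, deeper than members, and Ccl3 UMIs in 22.8% to 55.7% of them, while unthinned members had Ccl3 in 85.9% to 96.2%.

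By library, Ccl3 in members stood at 7088, 8218 and 8123 CPM in IgG 1, 2 and 3 and at 7986, 6728 and 9012 CPM in anti-VSIG4 1, 2 and 3. In the other gated neutrophils it stood at 1839, 3038 and 2247 CPM in IgG libraries and 2653, 1175 and 3261 CPM in those given anti-VSIG4. Every member value lay above every other value, as the rule makes likely. Il23a in members was 616, 1139 and 1199 CPM in IgG libraries and 1131, 1773 and 1573 CPM in those given anti-VSIG4, with IgG 1 lowest and anti-VSIG4 2 highest. Gpr84 was 558 ± 135 CPM in members and 316 ± 96.9 in other gated neutrophils, and Ccrl2 4122 ± 698 and 3251 ± 333, each higher in members in 6 of 6 libraries. The members were a minority source of these transcripts in the tumour. They held 15.3% of all Ccl3 UMIs, 13.5% of Il23a, 7.90% of Tnf and 6.54% of Ccl4. Barcodes with C1q, which marks macrophages, held 54.0% of Ccl4 and 47.7% of Tnf, and the other gated neutrophils held 47.3% of Il23a and 34.1% of Ccl3.

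**Figure D1:**
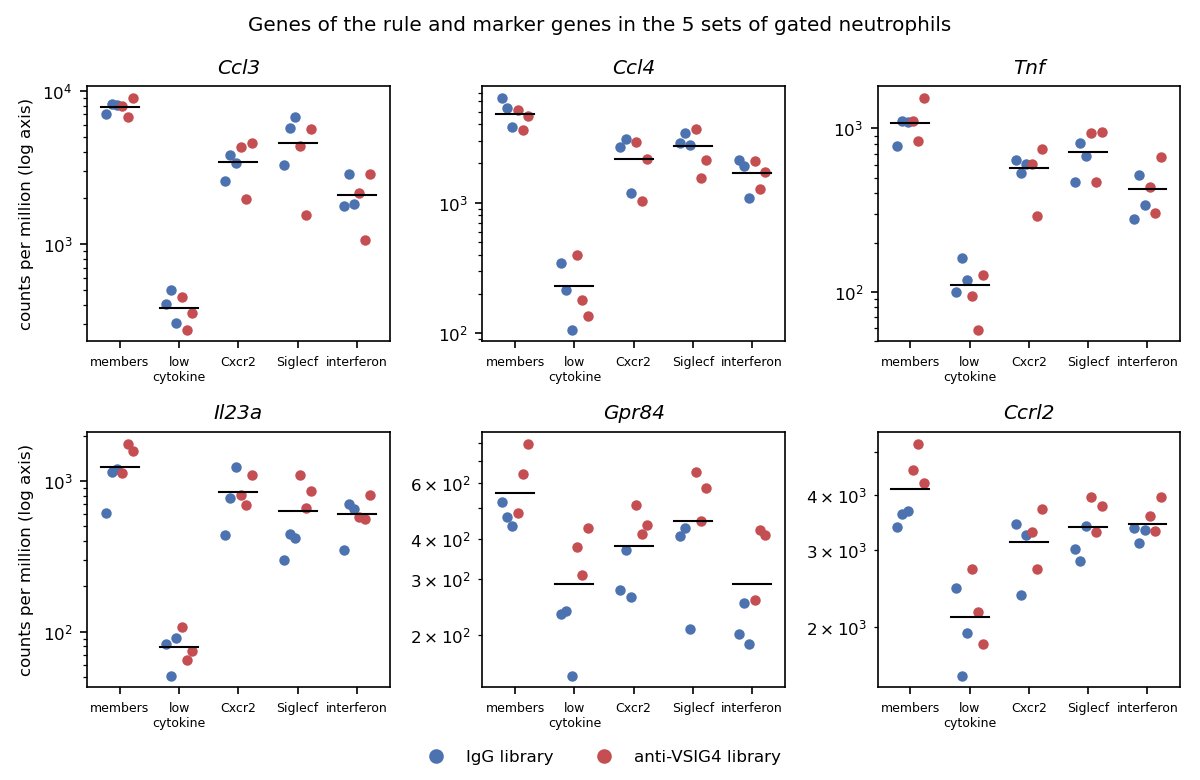
Level of 6 genes in CPM (log axis) in the 5 sets of gated neutrophils. Each point is 1 library and each bar the mean of the 6. Ccl3, Ccl4, Tnf and Il23a are lowest in the low-cytokine set, as its definition fixes, and the Cxcr2, Siglecf and interferon sets lie between; means for Ccl3 are 7859 CPM in members, 3430 in the Cxcr2 set, 4552 in the Siglecf set and 2093 in the interferon set.

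What else came with these cytokines was asked by comparing members with all other gated neutrophils of the same library, in a fit with the library as a block. Genes that follow a rule gene from cell to cell must move with the gate, so these counts describe the gated cells and do not stand for an independent contrast. Of 7296 genes outside the rule, 556 were higher in members and 770 lower (edgeR quasi-likelihood test, adjusted p under 0.05; 18.2% called, 7.62% higher and 10.6% lower). With no filter on low counts, 14.9% of calls were higher rather than 41.9%. The count was 376 without the library as block. It fell to 593 genes with a stricter neutrophil gate and to 362 when only the low-cytokine set was the comparator. F7 and F10, which encode coagulation factors VII and X, rose by 1.66 ± 0.21 and 1.25 ± 0.16 on the log2 scale (± SE; adjusted p = 3.40e-06 and 4.70e-05).

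F7 stood at 39.2 to 154 CPM in members by library (median 70.5) and at 11.7 to 28.5 CPM in other gated neutrophils (median 22.1), with no overlap. F10 stood at 136 to 471 CPM in members (median 282) and at 62.2 to 158 CPM in the others (median 112), where IgG 2 members fell inside the range of the others.

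The other 10 genes with the largest rises were Fnip2, Ralgds, Hilpda, Mtss1, Atf5, Atp6v1c1, Higd1a, Slc31a2, Car4 and Frrs1, with log2 changes from 1.27 down to 0.91, each higher in 6 of 6 libraries. Fnip2, a folliculin partner in nutrient sensing, stood at 81.2 to 185 CPM in members (median 99.5) and 32.7 to 53.5 CPM in the others (median 48.1), with no overlap. Atf5, a stress-response transcription factor, Atp6v1c1, a subunit of the proton pump that acidifies lysosomes, and Slc31a2, a copper transporter, were also apart in all libraries. Car4, a membrane carbonic anhydrase, was at 80.4 to 371 CPM in members and 45.6 to 189 CPM in the others, ranges that overlapped although members were higher within each library.

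The 12 genes named among those that fell were Oasl1, Oas3, Ifi47, Slfn5, Irf7, Rtp4, Trim30b, AW011738, Lrg1 and the haemoglobin genes Hba-a1, Hba-a2 and Hbb-bs. Oasl1, Oas3, Ifi47, Slfn5, Irf7, Rtp4 and Trim30b are interferon-induced genes, which follow the interferon limit in the rule: of 24 tested genes on the interferon response list, 0 rose and 23 fell. Against the low-cytokine set, which meets the same limit, 1 of 20 rose and 0 fell, near the 5.33% of all genes called higher and 2.45% called lower there. Haemoglobin transcripts, which come from red cells, took 0.00264% to 0.0191% of UMIs in members and 0.00788% to 0.139% in other gated neutrophils. Against these pooled others, members were lower in 6 of 6 libraries, but not against each set. In IgG 2, members (0.00264%) lay above the low-cytokine (0.00205%), Cxcr2 (0.00146%) and interferon (0.00238%) sets and below the Siglecf set (0.0671%). The low-cytokine set held 0.701% in IgG 1 and 0.661% in anti-VSIG4 2, the highest of the sets there. The part of haemoglobin transcripts in other results was not tested.

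Because the interferon set supplied most of the other cells, members were next compared with each of the 4 sets in 1 fit over 5235 genes. All 4 comparisons share the member libraries, so their counts are not independent. Against the low-cytokine set, 7.77% of genes were called, 279 higher and 128 lower (5.33% and 2.45%). Against the Cxcr2 set, 8.69% were called, 182 higher and 273 lower (3.48% and 5.21%). Against the Siglecf set, 6.97% were called, 270 higher and 95 lower (5.16% and 1.81%). Against the interferon set, 35.3% were called, 834 higher and 1016 lower (15.9% and 19.4%). In the same direction in each of the 4 comparisons, 38 genes were higher (0.726% of those tested) and 9 lower (0.172%).

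The 38 included coagulation factors (F7, F10), genes known to respond to low oxygen (Hilpda, Higd1a, Bnip3, Ero1a, Fam162a, Mif), enzymes of glycolysis (Hk2, Aldoa, Gapdh, Ldha), lysosomal genes (Ctsb, Ctsz, Atp6v0c), the iron and haem genes Ftl1 and Hmox1, the stress factor Ddit3, and the secreted factors Cxcl2, Csf1 and Il1rn. F7 was higher by 1.84 on the log2 scale against the low-cytokine set, 1.43 against the Cxcr2 set, 1.41 against the Siglecf set and 1.70 against the interferon set. Fnip2 was higher by 1.33, 1.26, 1.11 and 1.26 in the same order. Some of the 38 differed by little: the smallest of the 4 differences was 0.36 for Cxcl2, 0.28 for Aldoa and 0.28 for Hk2. The 9 that were lower included Nlrp12, an inhibitory NOD-like receptor, Bambi, a decoy receptor of the TGF-beta family, and Hp, the haemoglobin-binding haptoglobin of neutrophil granules. Nlrp12 was at 4.17 to 14.0 CPM in members and 28.4 to 50.1 CPM in the other gated neutrophils, with no overlap. These groupings of the 38 and 9 genes were made after their values were seen.

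**Figure D2:**
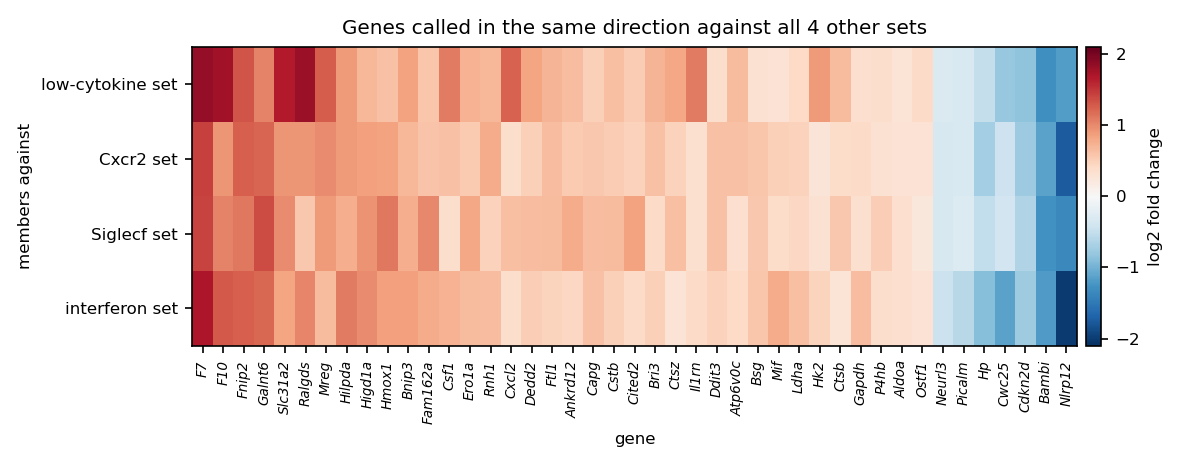
Log2 fold change of members against each of the 4 other sets of gated neutrophils, for named genes among those called in 1 direction in all 4 comparisons (red higher in members, blue lower; edgeR). F7, F10 and Fnip2 are the darkest red columns over the 4 rows, and Nlrp12, at up to 2.01 lower, the darkest blue.

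The genes named in each single comparison partly differed. Against the low-cytokine set the named genes higher in members were Ntng2, F7, Ralgds, F10 and Slc31a2 (log2 2.06 to 1.67), and those lower were Tinf2, Anxa1, Arpc5l, Dusp6 and Cdkn2d (-1.07 to -0.85). Anxa1 encodes annexin A1, a neutrophil protein that limits inflammation, and Dusp6 a phosphatase of ERK. Against the Cxcr2 set, F7, Fnip2, Piezo1, Mreg and F10 were higher (1.43 to 0.93), and Lrg1, Trim30b, Anxa1 and Wfdc17 lower (-1.74 to -1.18). Against the Siglecf set, Cstdc4, Fmnl2, Gadd45g, F7 and Mirt2 were higher (1.84 to 1.41), and Gpd1l, Arpc5l, Gpr171, G3bp2 and Rexo1 lower (-1.43 to -0.90). Cstdc4 is one of several near-identical stefin genes, so reads may have been divided among them, and its level in members varied widely between libraries (914 ± 673 CPM). Against the interferon set, F7, Hspa1b, F10, Fnip2 and Mtss1 were higher (1.70 to 1.22), and the genes lower by most were interferon-induced (Oasl1, Ifi47, Oas3, Slfn5) or AW011738 (-3.24 to -2.79).

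Genes of the hypoxia response were higher in members as a list. Of 16 tested, 11 rose and 2 fell against all other gated neutrophils, with a median log2 change of 0.61 beside 0.04 over all 7296 genes. Of those 7296 genes, 7.62% were called higher and 10.6% lower. Hilpda, a lipid droplet protein, was at 1384 to 2286 CPM in members (median 1878) and 538 to 1110 CPM in the others (median 968). Higd1a, a mitochondrial protein, was at 338 to 630 CPM (median 425) against 192 to 258 CPM (median 207). Neither gene overlapped between the sets, and each was close to 2-fold higher (log2 1.01 ± 0.08 and 0.95 ± 0.09). Bnip3, which marks mitochondria for removal, rose by 0.85 ± 0.10, Ero1a, an oxidase of protein folding, by 0.68 ± 0.10, and Mif, a cytokine, by 0.66 ± 0.07. P4ha1, Ankrd37, Bnip3l, Egln1, Egln3 and Pdk1 also rose. Hif1a itself fell (107 ± 24.8 against 151 ± 13.8 CPM; log2 -0.55 ± 0.12, adjusted p = 0.000557), as did Mxi1. Vegfa stood at 517 ± 70.0 and 431 ± 71.5 CPM (0.21 ± 0.08, adjusted p = 0.0689 with edgeR) and did not pass. Against the low-cytokine set 6 of 16 rose and 0 fell (5.33% and 2.45% of all genes). Against the Cxcr2 set 9 rose and 1 fell (3.48% and 5.21% of all genes), and against the Siglecf set 8 rose and 0 fell (5.16% and 1.81%). Against the interferon set 12 rose and 2 fell (15.9% and 19.4% of all genes).

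Of 19 genes of glycolysis, 10 rose and 3 fell against all other gated neutrophils, beside 7.62% of all genes called higher and 10.6% lower. Ldha, which makes lactate, was at 750 to 1349 CPM in members (median 1017) and 571 to 840 CPM in the others (median 603), and rose by 0.58 ± 0.07. Gapdh, Gpi1, Tpi1 and Hk2 rose by 0.56, 0.57, 0.52 and 0.48. The 3 that fell were Slc16a3, the lactate exporter (-0.67 ± 0.08), Slc2a3, a glucose transporter (-0.88 ± 0.14), and Pfkfb4 (-0.82 ± 0.15). Against the Siglecf set the direction of Slc16a3 was the reverse (0.48), and against the low-cytokine set it did not pass (-0.13). Slc2a1 (250 ± 92.6 against 258 ± 53.6 CPM) and Pkm (1319 ± 195 against 1180 ± 161 CPM) did not pass. Gapdh and Mif have many processed pseudogenes, so their counts depend on how the authors assigned shared reads.

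The share of all promoter windows with ACGTG was 16.6% of 32851, and counted by gene, with any listed start site, 18.5% of 27025. Of the 38 genes higher against every set, 32 had an entry in the promoter table and 15 of these (46.9%) held ACGTG, among them Ldha, Bnip3, F10, Ero1a, Hilpda, Hk2, Aldoa and P4hb. F7, Fnip2, Higd1a and Mif were among those without it. The NF-kB consensus, searched by its usual form on both strands, lay in 5 of the 32 (15.6%) beside 8.23% of all genes, and the AP-1 motif TGANTCA in 5 (15.6%) beside 7.82%. These windows were not matched for base composition and the motifs were searched after the genes were known, so the shares are descriptions.

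Lysosome and lipid genes also rose in number: 10 of 20 were higher and 2 lower. Over all genes in this comparison, 7.62% were called higher and 10.6% lower. Ftl1, the ferritin light chain, was at 4295 to 6714 CPM in members and 3257 to 4002 CPM in the others, with no overlap (0.56 ± 0.07). Its pseudogene Ftl1-ps1 moved with it, and reads of the pair cannot be told apart with certainty. Cd63, a granule and lysosome membrane protein, rose by 0.49 ± 0.08, Acsl1, which activates fatty acids, by 0.84 ± 0.13, and the cathepsins Ctsb and Ctsz by 0.39 ± 0.08 and 0.43 ± 0.08. Ctss, another cathepsin, fell by 0.53, and Lamp2 fell by 0.56. Ctsd (434 ± 142 against 450 ± 128 CPM) and Npc2 (269 ± 40.4 against 245 ± 14.3 CPM) did not pass. Of 18 genes of heat shock and stress, 8 rose and 1 fell. Hmox1, which degrades haem, was at 98.0 to 252 CPM in members and 76.0 to 138 CPM in the others (0.86 ± 0.11). Ddit3, a factor of the unfolded protein response, rose by 0.53 ± 0.08, Atf4, its upstream activator, by 0.42 ± 0.08, and Hspa1a, an inducible chaperone, by 0.87 ± 0.10. Hspa1a and Hspa1b are near-identical copies, and their separate counts are uncertain. Txnrd1, a thioredoxin reductase, fell by 0.30.

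Among cytokines and chemokines outside the rule, 6 of 26 rose and 6 fell, where 7.62% of all genes were called higher and 10.6% lower. Cxcl2, a ligand of CXCR2, was the most abundant at 25292 to 45690 CPM in members (median 36040) and 14629 to 33353 CPM in the others (median 27114), higher in 6 of 6 libraries (0.48 ± 0.08, adjusted p = 0.000128). Csf1, the macrophage growth factor, was at 471 to 664 CPM in members and 269 to 379 CPM in the others, with no overlap (0.73 ± 0.08). Il1rn, the IL-1 receptor antagonist, rose by 0.46 ± 0.07, Spp1, osteopontin, by 0.65 ± 0.09, Tnfsf9, the 4-1BB ligand, by 1.03 ± 0.18, and Il1a by 0.23 ± 0.08. Il1b, by contrast, fell, from 18941 ± 2766 CPM in the others to 13952 ± 2189 CPM in members (-0.50 ± 0.07). Osm, oncostatin M, was at 238 to 488 CPM in members and 550 to 970 CPM in the others (-1.29 ± 0.09). Il15, Ccl5, Tnfsf14 and Ccl6 fell as well. The fall of Il1b rested on 2 of the sets: it was 0.36 lower than in the Cxcr2 set and 0.72 lower than in the interferon set, and did not pass against the low-cytokine set (0.18) or the Siglecf set (0.03). Of the IL-23 and IL-17 list, only Il17ra, a subunit of the IL-17 receptor, passed the count filter, and it fell by 0.79 (128 ± 38.2 against 212 ± 44.5 CPM).

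NF-kB genes depended on the comparator. Against all other gated neutrophils, 4 of 28 subunits, inhibitors and feedback genes rose and 6 fell (7.62% and 10.6% of all genes). Their median change of 0.03 was close to the 0.04 of all genes. Against the low-cytokine set, 17 of 27 rose and 0 fell (5.33% and 2.45% of all genes), with a median of 0.48 beside -0.03 over all genes tested there. Against the Siglecf set 13 rose and 0 fell (5.16% and 1.81% of all genes). Against the interferon set 1 rose and 12 fell (15.9% and 19.4% of all genes). Nfkbia, the IkB protein that NF-kB induces to restrain itself, was at 4680 to 8002 CPM in members (median 5702) and 4055 to 6108 CPM in the others (median 4552), a rise of 0.25 ± 0.08 that grew to 1.20 against the low-cytokine set. Tnfaip3, the feedback inhibitor A20, and Nfkbiz, an atypical IkB protein, were 1.03 higher each than in the low-cytokine set but did not pass against all others (0.06 each). Ikbke, a kinase of the pathway, was the member of the list with the largest rise (172 to 225 CPM against 83.0 to 134 CPM; 0.72 ± 0.10). Tnfaip2 and Socs3 fell by 0.42 and 0.43 against all others and rose by 0.44 and 0.26 against the low-cytokine set. Cells of the low-cytokine set were chosen for few transcripts of 4 NF-kB-induced genes, so the last comparison runs along the rule itself.

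**Figure D3:**
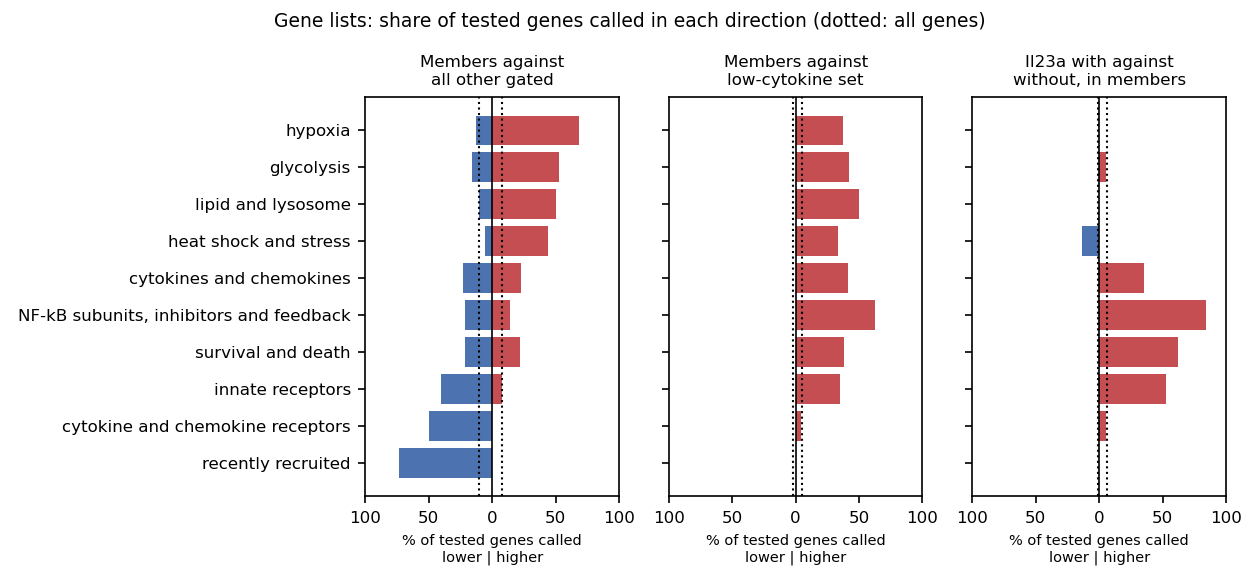
Percent of tested genes of 10 lists called higher (red, to the right) or lower (blue, to the left), with dotted lines at the percent of all genes called in each direction. Hypoxia and glycolysis genes are mostly higher against all other gated neutrophils (11 of 16 and 10 of 19), while NF-kB genes are mostly higher against the low-cytokine set (17 of 27) and in members with Il23a (21 of 25).

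Of 22 cytokine and chemokine receptors, 0 rose and 11 fell, led by Tnfrsf1a, the TNF receptor 1 (202 ± 39.9 against 335 ± 43.9 CPM; -0.78 ± 0.10), and including Il1rap, Cxcr4, Ccr1, Il4ra, Ifnar2 and Csf2rb. Of 25 innate receptors, 10 fell, among them Tlr2 (-1.05 ± 0.15), Ltb4r1, Trem1, C5ar1 and Cd14, and 2 rose, Clec4n and Clec5a, which encode C-type lectins (0.40 ± 0.08 and 0.29 ± 0.10). Against all other gated neutrophils, 7.62% of all genes were called higher and 10.6% lower. The receptor counts depended on the comparator. Against the low-cytokine set, where 5.33% of all genes were called higher and 2.45% lower, 8 of 23 innate receptors rose and 0 fell. There 1 of 22 cytokine receptors rose and 0 fell, near those shares, so this count says nothing of the list. Against the Siglecf set (5.16% and 1.81% of all genes), 3 of 22 cytokine receptors rose and 0 fell, and 8 of 23 innate receptors rose and 0 fell. Against the interferon set (15.9% and 19.4%), 0 of 22 and 2 of 23 rose, while 16 and 18 fell. Of 15 genes of recently recruited neutrophils, 0 rose and 11 fell. Selplg, the P-selectin ligand, fell by 0.96, and Slpi, a protease inhibitor, by 0.74. Cxcr2, at 0 in members by the rule, marks the same state. Against the low-cytokine set, which also lacks Cxcr2, 0 of 14 passed in either direction with edgeR. With 5.33% of all genes called higher and 2.45% lower there, a list of 14 would hold few calls, so this count says nothing of the list. Of 16 genes of tumour-adapted neutrophils, 7 rose (Fnip2, Car4, Cstb, Atf4, Ctsb, Clec5a and Il1a) and 2 fell (Cd274, which encodes PD-L1, and Ffar2).

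Of 23 survival and death genes, 5 rose and 5 fell. The A1 genes Bcl2a1a, Bcl2a1b and Bcl2a1d, anti-apoptotic relatives of Bcl2, rose by 0.53 ± 0.08, 0.40 ± 0.07 and 0.48 ± 0.08. They are near-identical copies, so the reads may have been divided among them. Bax, which promotes death, rose by 0.48 ± 0.10, and Mcl1, which opposes it, fell by 0.28 ± 0.07. Of 16 genes of immune regulation, 2 rose (Spp1 and Pdcd1lg2, the PD-L2 gene) and 5 fell, with Wfdc17 at 115 to 427 CPM in members and 443 to 1058 CPM in the others and Entpd1, the ATP-degrading CD39, also lower. Immediate early genes were mixed, with 5 of 26 higher (Egr3, Maff and Klf2 among them) and 9 lower (Btg2, Btg1, Fos and Dusp1 among them). Of 17 granule and maturation genes, 2 rose (Cd177 and Chil3) and 7 fell (Adam8, Anxa1 and Hp among them). Chil3 rested on few UMIs in members: 1 cell held 12 of 27 in anti-VSIG4 1 and 1 cell 13 of 26 in anti-VSIG4 3. Retnlg, a granule gene of young neutrophils, stood in members at 1840 CPM in IgG 3 and at most 189 CPM elsewhere, and 419 of the 657 UMIs in IgG 3 came from 1 cell. Smaller lists are given beside the 7.62% of all genes called higher and 10.6% called lower, and the counts near those shares say nothing of the list. Of 10 prostaglandin and leukotriene genes 1 rose and 2 fell, of 15 TNF pathway genes 2 rose and 6 fell, of 6 class II and costimulation genes 0 rose and 1 fell, and of 11 mitochondrially encoded genes 0 passed (edgeR).

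Among the members themselves, cells with Il23a differed from cells without. This split was added after the data were seen. Il23a is a gene of the rule and is itself induced through NF-kB. Genes that follow it from cell to cell must move with the split, so these counts describe the members and are no independent contrast. The 701 members with at least 1 Il23a UMI were set against the 1167 without, within libraries, and 7.4% of 2917 genes were called, 179 higher and 37 lower (6.14% and 1.27%). Median UMIs per cell were 1333 to 1588 with and 1282 to 1664.5 without, and after thinning to 1000 UMIs 122 of 1918 genes were higher and 26 lower. NF-kB genes led: 21 of 25 rose and 0 fell, with a median log2 change of 0.82 beside a median near 0 over all genes. Icam1, an adhesion molecule, was at 1150 ± 330 CPM with Il23a and 414 ± 110 without (1.59 ± 0.11), Nfkbiz at 1423 ± 234 and 523 ± 102 (1.58 ± 0.11), and Tnfaip3 at 659 ± 138 and 255 ± 32.6. Il1a rose by 1.45 ± 0.13 and Dusp2, a phosphatase of MAP kinases, by 1.45 ± 0.15. Orai2, a calcium channel, Fpr1, the formyl peptide receptor, Ntng2, Chi3l1, Olr1, a scavenger receptor, Clps and Asprv1 were the other named genes that rose. Clps encodes pancreatic colipase, an acinar transcript. Of acinar markers, members held 166 to 660 CPM by library against 156 to 591 in other gated neutrophils, higher in 6 of 6 libraries, and their part in the rise of Clps was not tested.

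Other lists are read against the 6.14% of all genes called higher and 1.27% called lower in this split, shares at which lists of this size would hold few calls. Of 15 hypoxia genes 0 passed in either direction (edgeR), of 20 lysosome and lipid genes 0 passed, and of 15 heat shock genes 0 rose and 2 fell, Hspa1a (272 ± 149 with and 704 ± 537 CPM without; -1.04 ± 0.22) and Hspa1b. The other named genes that fell were Gpr171, Glmp, Gadd45gip1, Fkbp2, Rdx, Hdgf and AI839979 (-1.18 to -0.92). Of 16 survival genes, 10 rose, including Bcl2a1b and Cflar (0.94), an inhibitor of caspase 8. As a description, Gpr84 was at 938 ± 141 CPM in members with Il23a and 335 ± 170 without, Tnf at 1800 ± 503 and 681 ± 236, and Ccrl2 at 5196 ± 766 and 3418 ± 467, each higher in 6 of 6 libraries. Ccl4 was at 4295 ± 928 and 5139 ± 1319 CPM, higher in 2 of 6.

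**Figure D4:**
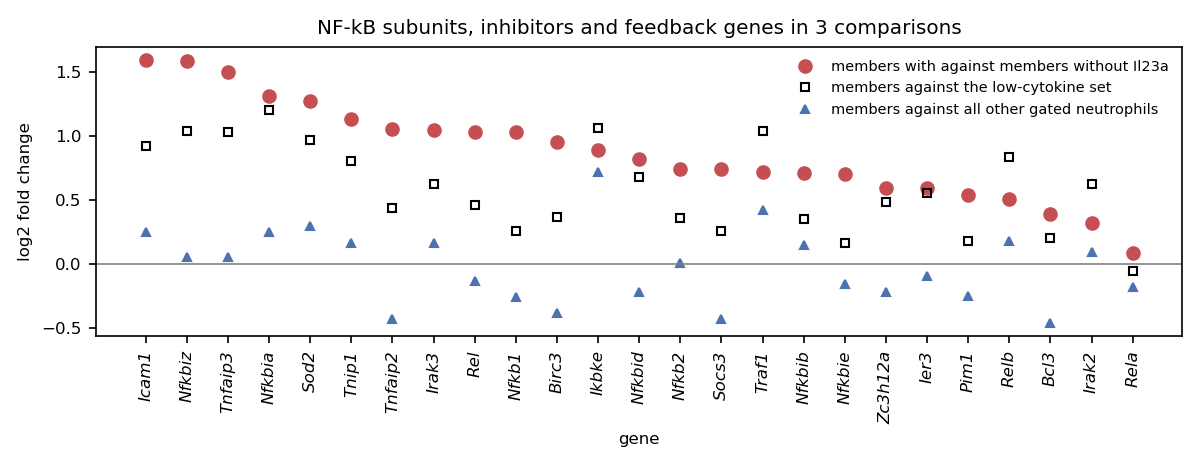
Log2 fold change of 25 NF-kB subunit, inhibitor and feedback genes in 3 comparisons. Red circles (members with against without Il23a) lie above 0 for all 25, from 1.59 for Icam1 to 0.09 for Rela; open squares (against the low-cytokine set) lie above 0 except Rela; blue triangles (against all other gated neutrophils) scatter about 0.

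The study treated mice with anti-VSIG4 or IgG, and members were compared between the groups with each mouse as 1 replicate. Members made up 11.1%, 14.6% and 14.2% of gated neutrophils in IgG 1, 2 and 3 and 13.1%, 12.9% and 15.5% in anti-VSIG4 1, 2 and 3. The groups overlapped, at 13.3 ± 1.89% and 13.8 ± 1.45% (exact two-sided permutation p = 0.8, where the smallest that 3 against 3 libraries allow is 0.1). The difference of 0.528 percentage points turned to -0.556 without IgG 1 and to -0.304 without anti-VSIG4 3. Libraries also differed in barcodes with over 15% of UMIs from genes longer than 100 kb (called nucleus-like here): 1.06%, 1.47% and 0.651% in IgG 1, anti-VSIG4 2 and anti-VSIG4 1, but 21.9%, 48.6% and 9.74% in IgG 2, IgG 3 and anti-VSIG4 3. Within the first 3 libraries the difference in the share of members was 1.87 points and within the other 3 it was 1.11 points.

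Genes of the rule and marker genes were also set side by side between the groups, as a description that carries no test. Of the 4 cytokine genes, only Il23a lay apart in its share of members after thinning, and all 4 overlapped in CPM. The share of members with an Il23a UMI was 28.9%, 31.3% and 29.5% in IgG libraries and 41.3%, 54.5% and 42.1% in those given anti-VSIG4. The groups did not overlap, also within each kind of library. After thinning to 1000 UMIs, the shares were 25.1%, 28.4% and 28.0% in IgG libraries and 35.2%, 51.3% and 36.2% in those given anti-VSIG4, again apart. Gpr84 was found in 22.6 ± 4.14% of IgG and 36.7 ± 1.65% of anti-VSIG4 members, and was also apart in the other gated neutrophils (13.6% to 17.7% and 22.5% to 25.3%). Tnf was found in 36.8 ± 4.32% and 46.6 ± 3.99%, apart as deposited but overlapping after thinning (32.7 ± 3.33% and 38.9 ± 3.72%). Ccl3 was found in 94.9 ± 1.16% and 91.3 ± 4.65%, and Ccl4 in 70.6 ± 6.45% and 67.8 ± 10.2%, and the groups overlapped for both. In the other gated neutrophils the share with Il23a was 16.5%, 21.3% and 20.5% in IgG libraries and 31.0%, 20.9% and 27.4% in those given anti-VSIG4, which overlapped. The background moved too: barcodes with T cell receptor transcripts had thinned Il23a shares of 0.926%, 1.80% and 0.984% in IgG libraries and 5.58%, 2.68% and 3.00% in those given anti-VSIG4, and its part in the member shares was not tested. Il23a in CPM overlapped between the groups (985 ± 321 and 1492 ± 328 CPM).

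Across genes outside the rule, 0 of 5118 passed for anti-VSIG4 against IgG within members (edgeR, 0.0% called in either direction; 371 genes had an unadjusted p under 0.05). DESeq2 called 22 genes, 18 higher and 4 lower, and edgeR called 27 once the kind of library was a covariate, 22 higher and 5 lower. In tests on simulated counts, 36% of genes changed 2-fold and 83% of genes changed 4-fold were recovered at this size. The simulation gave every gene the same fixed dispersion, not taken from these data, so these shares do not measure the power of this comparison. The 5 named genes, those with the smallest p at 50 CPM or more, did not pass, and each was higher in every anti-VSIG4 library. Lrg1, a secreted glycoprotein of recently recruited neutrophils, stood at 41.7, 30.6 and 50.4 CPM in IgG and 137, 95.9 and 114 CPM in anti-VSIG4 members (1.70 ± 0.29, adjusted p = 0.199). Car4 stood at 80.4, 97.3 and 157 CPM and 280, 371 and 245 CPM (1.54 ± 0.28, adjusted p = 0.251). Pycard, the inflammasome adaptor ASC, stood at 44.7, 43.1 and 30.8 CPM and 115, 95.9 and 81.2 CPM (1.42 ± 0.28, adjusted p = 0.288). Apoe, a lipid carrier made by macrophages, stood at 575, 431 and 297 CPM and 1257, 905 and 709 CPM (1.28 ± 0.26, adjusted p = 0.288). Sod2, a mitochondrial superoxide dismutase induced by NF-kB, stood at 319, 388 and 401 CPM and 571, 767 and 598 CPM (0.92 ± 0.21, adjusted p = 0.288). Over the alternatives run, adjusted p of these 5 genes ranged from 3.186e-06 for Car4 to 0.9961. Leaving out anti-VSIG4 3 gave 14 genes called, all higher, and leaving out IgG 1 and IgG 2 gave 1 and 2, all lower.

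Apoe was also at 700, 429 and 273 CPM in the other gated neutrophils of IgG libraries and at 1211, 725 and 668 CPM in those of anti-VSIG4 libraries. The 12 monocyte and macrophage markers summed to 543 to 1018 CPM in IgG and 1099 to 1763 CPM in anti-VSIG4 members, 588 to 1727 CPM in other gated neutrophils and 5429 to 12936 CPM in barcodes outside the gate. The part of macrophage transcripts in the Apoe values was not tested. Malat1, a nuclear RNA, took 0.346% to 0.431% of member UMIs in IgG libraries and 0.202% to 0.244% in those given anti-VSIG4, also without overlap. The 8 acinar markers summed to 378 to 660 CPM in IgG and 166 to 367 CPM in anti-VSIG4 members, likewise apart (exact two-sided permutation p = 0.1, the smallest possible). The part of either in the treatment values was not tested.

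Without regard to a test, 179 genes lay apart and higher in anti-VSIG4 members and 544 apart and lower (3.48% and 10.6% of 5138). Of 27 NF-kB genes, 7 lay apart and higher (Nfkbia, Nfkbib, Relb, Tnip1, Traf1, Zc3h12a and Sod2) and 1 lower (Pim1), and none passed the test. Nfkbia stood at 4680, 5229 and 4801 CPM in IgG and 8002, 7037 and 6175 CPM in anti-VSIG4 members (0.66, unadjusted p = 0.000916 and adjusted p = 0.288, edgeR). Of 18 heat shock genes, 0 lay apart and higher and 5 lower, with Hspa1b at 301, 536 and 389 CPM and 208, 45.9 and 181 CPM. Of 16 hypoxia genes, 3 lay apart and higher, Mif, Pdk1 and Hif1a. Il1b stood at 13093, 12313 and 11330 CPM in IgG and 17342, 15400 and 14232 CPM in anti-VSIG4 members, likewise apart and not passing (adjusted p = 0.373, edgeR). Of 15 TNF pathway genes 11 were tested here, with 1 apart in each direction.

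Whether treatment acted differently in members than in other gated neutrophils was tested as an interaction, and 1 of 8339 genes passed (0.012%). This was Ngp, a granule gene of immature neutrophils, which falls outside the rule for named genes and was chosen after its values were seen (-2.74 ± 0.35, adjusted p = 0.0002). It stood at 0, 55.6 and 597 CPM in IgG and 15.8, 0 and 306 CPM in anti-VSIG4 members, and 169 of the 213 UMIs in IgG 3 came from 1 cell. Without cells rich in granule transcripts, 0 genes passed with edgeR (456 at an unadjusted p under 0.05), and with DESeq2 0 passed (198 unadjusted). Neither Car4 (45.6 to 55.3 CPM in IgG and 142 to 189 CPM in anti-VSIG4) nor Sod2 (308 to 359 CPM and 374 to 499 CPM) overlapped between treatment groups in the other gated neutrophils, and the interaction passed for neither.

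**Figure D5:**
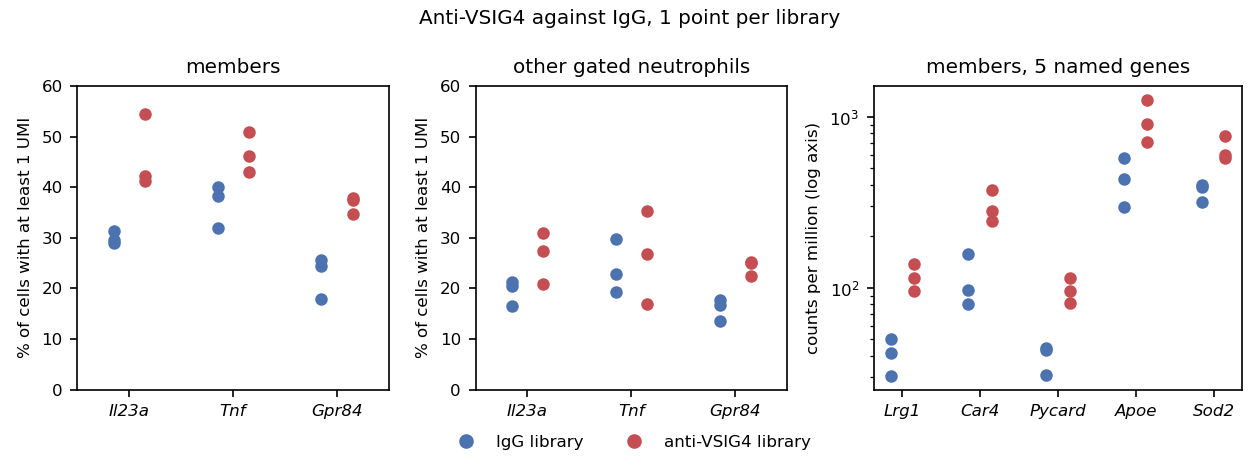
Left and middle, percent of members and of other gated neutrophils with at least 1 UMI of Il23a, Tnf or Gpr84 as deposited, without thinning; right, CPM (log axis) of 5 named genes in members. Each point is 1 library. Il23a and the 5 genes at the right are apart between IgG (blue) and anti-VSIG4 (red) members, and none of the 5 passed the adjusted test.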

How the data were processed

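Single-cell RNA-seq libraries from 6 tumours (3 IgG, 3 anti-VSIG4) were used. The authors deposited 1 sparse matrix per library, holding raw UMI counts per gene and barcode. Per the file headers the matrices came from PISA 1.0, and STAR and Seurat 4.11 are listed in the submitters' processing notes, with no roles. Genome build, annotation and strand use: not given in the sources used here. Libraries held 26606234 to 47221033 UMIs in 6518 to 9566 barcodes. Barcode names recur between libraries because they are index labels, and no member shared its counts with a member of another library.

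The members and gene lists were chosen with earlier results of these data known. No doublet caller was run. The rule limits C1q, T cell receptor and class II transcripts, and whether mixed barcodes remain among members was not tested. UMI counts were summed per library and set. edgeR 4.0.16 (R 4.3.3) was run with TMM scaling, filterByExpr, robust quasi-likelihood fits and Benjamini-Hochberg adjustment at 0.05 over all genes tested. Members against other sets had the library as block; anti-VSIG4 against IgG did not. The replicate numbers of the groups did not pair the libraries. Single values were compared by exact two-sided permutation tests. Gene spans for nucleus-like barcodes came from GENCODE M21. Thinning drew 1000 UMIs per cell. The text names genes by a rule: genes past 0.05 with at least 50 CPM in the higher set and the same direction in 6 libraries, up to 12 per direction (5 per direction for each other set), or the 5 smallest p values where too few passed. For treatment, genes whose groups did not overlap were taken, and from the 21 lists up to 6 members each with the smallest p and 2 that did not pass. Further list members named by role were chosen after their values were seen. Gene models named Gm or Rik, pseudogenes and ribosomal genes were counted and not named. On simulated counts, members against others recovered 73% of 2-fold and 92% of 4-fold changes over 7323 genes. Every simulated gene had the same fixed dispersion, not taken from these data. Alternatives were DESeq2 1.42.0, no count filter, other cytokine thresholds, stricter gates, thinning, and leaving out each library. Python 3.11.15, numpy 2.4.6, pandas 2.3.3, scipy 1.17.1 and matplotlib 3.10.9 were used. The number of libraries limits precision. For anti-VSIG4 against IgG, p-values measure the spread of levels between mice. Where the library was a block, they measure how far the difference within a library varied between mice. Some genes of the lists are not reported here.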

Additional observations from a re-analysis of the deposited data

Results flagged for a closer look

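Log2 ratios of members over other gated neutrophils were checked in the 6 libraries for 42 genes, and in 6 genes 1 library stood apart from the rest by the gap to its neighbour relative to the whole range, where chance alone marks about 1 gene in 20. Slc31a2 stood at 2.11 in anti-VSIG4 2, Car4 at 1.49 in IgG 3, Irf7 at -1.46 in anti-VSIG4 3, Clec4e at -0.358 in IgG 1 and Il23a, a gene of the rule, at 1.79 in anti-VSIG4 2. Retnlg stood at 1.21 in IgG 3, where 419 of 657 UMIs came from 1 cell.

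The effect of treatment on Ngp differed between members and other gated neutrophils (interaction of -2.74 on the log2 scale, the only 1 of 8339 genes to pass with edgeR). Few members carried its transcripts: 5 of 207 members in IgG 3 and 11 of 401 in anti-VSIG4 3 held any.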

How the results depend on the processing

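Of 1326 genes that differed between members and other gated neutrophils, the count became 376 with no replicate block, the block here being the library, 593 with a stricter neutrophil gate and 362 with the low-cytokine set as comparator; it was 1009 to 1322 when 1 library was left out, 1037 with DESeq2 and 1216 with no count filter, where 14.9% of calls were higher beside 41.9% in the reported fit. For anti-VSIG4 against IgG within members, the count of 0 became 22 with DESeq2, 28 with no count filter, 27 with the kind of library as covariate, 52 within the 3 libraries with few nucleus-like barcodes (1 IgG library against 2), 29 within the 3 with many (1 anti-VSIG4 library against 2), where the lone library is assumed to vary like the others, and 0 to 14 when 1 library was left out. The replicate block, pairing libraries of the same number, left it at 0, and gave p = 0.75 for the share of members; correlations of same-numbered libraries were 0.2142, -0.1219 and 0.2211, so the numbers do not pair them. For the interaction, the count of 1 became 0 with DESeq2, 4 with no count filter, 0 with no replicate block, 0 after thinning, 0 with a cytokine sum of at least 6, 0 without cells rich in granule transcripts, and 2 to 12 when 1 library was left out. The difference in the share of members was -0.1924 points with the stricter gate and ranged from -0.556 to 1.18 when 1 library was left out. The cause of these changes was not tested. Of 425 checks of named genes in members against others, 410 kept their call and 15 lost it, 6 of these with the low-cytokine comparator, and none changed sign. Of 97 checks of the 5 treatment genes, 76 stayed and 21 passed. Library kind, granule-rich and nucleus-like alternatives were chosen after seeing the data; the kind cut was set at 5%, since at 1% a single library would lie below it. Some members held few UMIs (library medians from 1291), so genes under the count filter were not detectable as different at this depth.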
